A study of Mus musculus with 8 samples.

Results

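Cytokine receptors and the chains that they share were examined in spleens of Nix-null and wild-type mice. The 33 genes were listed by name, and every probe set annotated to one of them was taken. Of the 33 genes, 31 had a probe set, 64 probe sets in all out of 45037 that were not controls. A probe set was called above background where its log2 intensity was 5 or more in at least 4 of the 8 arrays, and 39 of the 64 were, out of 22347 in the whole table. These 39 represented 25 genes. The 6 genes Il1r2, Il2ra, Il9r, Il15ra, Il12rb1 and Il12rb2 fell short. Il2rg, which encodes the common gamma chain, and Il11ra1 had no annotated probe set and were not analysed here.

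The Nix-null group (Nix_KO arrays 2, 3, 6 and 10) held whole spleens of 8-week-old Nix-/- mice, and the wild-type group (WT arrays 3, 4, 5 and 6) whole spleens of 8-week-old wild-type mice. Neither group was treated, and each array carried RNA of 1 spleen that had not been pooled. Nix is the product of Bnip3l, an outer mitochondrial membrane protein through which reticulocytes remove their mitochondria, and the study asked what its loss does to cell death and to red cell formation. Strain, sex and the extent of the deletion are not stated in the labels. Every Bnip3l probe set is annotated to a pseudogene too, so the genotypes are taken as labelled and were not checked by the level of the gene.

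Cytokine receptors work as pairs or larger complexes: a private chain binds one cytokine, and a shared chain joins several receptors and passes on the signal. The common gamma chain serves lymphocyte growth factors, the common beta chain serves IL-3, IL-5 and GM-CSF, and gp130 serves IL-6 and its relatives. Most of these chains signal through JAK kinases and STAT factors, the IL-1 and IL-18 receptors through MYD88, and the TGF-beta receptors are kinases that act on SMAD proteins. In the spleen many of them are carried by lymphocytes, dendritic cells, macrophages and granulocytes, among other cells. Erythroid cells depend on another member of the superfamily, the erythropoietin receptor.

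Receptor levels were lower in Nix-null spleens. In RNA of a whole spleen, fewer cells of a type and less RNA per cell cannot be told apart. Of the 25 genes above background, 15 were lower, 0 were higher and 10 did not pass (limma, adjusted p under 0.05 over all 22347 probe sets), where 21.3% of all 11027 genes tested were lower and 13.1% higher, 34.4% in either direction. At an unadjusted p under 0.05, also 0 were higher. The median log2 difference, Nix-null minus wild type, was -0.66 over the 25 receptors and -0.15 over all genes tested. Of the 25, 15 had all Nix-null arrays below all wild-type arrays, against a background of 23.9% of genes. These were not quite the same genes: Il10rb passed with overlapping groups, and Csf2rb2 did not pass although its groups were apart. By probe set, 21 of 39 were lower and 0 higher, against backgrounds of 17.6% and 12.5%.

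The count depended on which arrays were used. Exocrine pancreas signal was high in 3 arrays: the mean log2 intensity of the 11 pancreatic genes tested was 13.02 in Nix_KO 3, 12.02 in WT 3 and 9.96 in WT 5, and between 5.26 and 7.42 in the other 5 arrays. Without these 3 arrays the median receptor difference was -0.73, and 24 of 25 differences were negative, but with 3 Nix-null and 2 wild-type arrays left only Il4ra passed (limma adjusted p = 0.0476), where 0.916% of all genes were lower. Nix-null arrays lay below wild-type arrays for 19 of 25 receptors in that reduced set, against 37.2% of all genes. Nix_KO 2 also stood apart, with the highest lower quartile of all probe sets (log2 3.41, against 3.03 to 3.19 in the other arrays). It was the lowest Nix-null array for 14 of the 25 receptors and for 30.7% of all genes, and without it 11 receptors and 18.1% of all genes were lower. Lower calls numbered 6 of 25 receptors without WT 4 and 7 without WT 6, and over all genes they also dropped, to 11.8% and 12.1%.

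**Figure D1:**
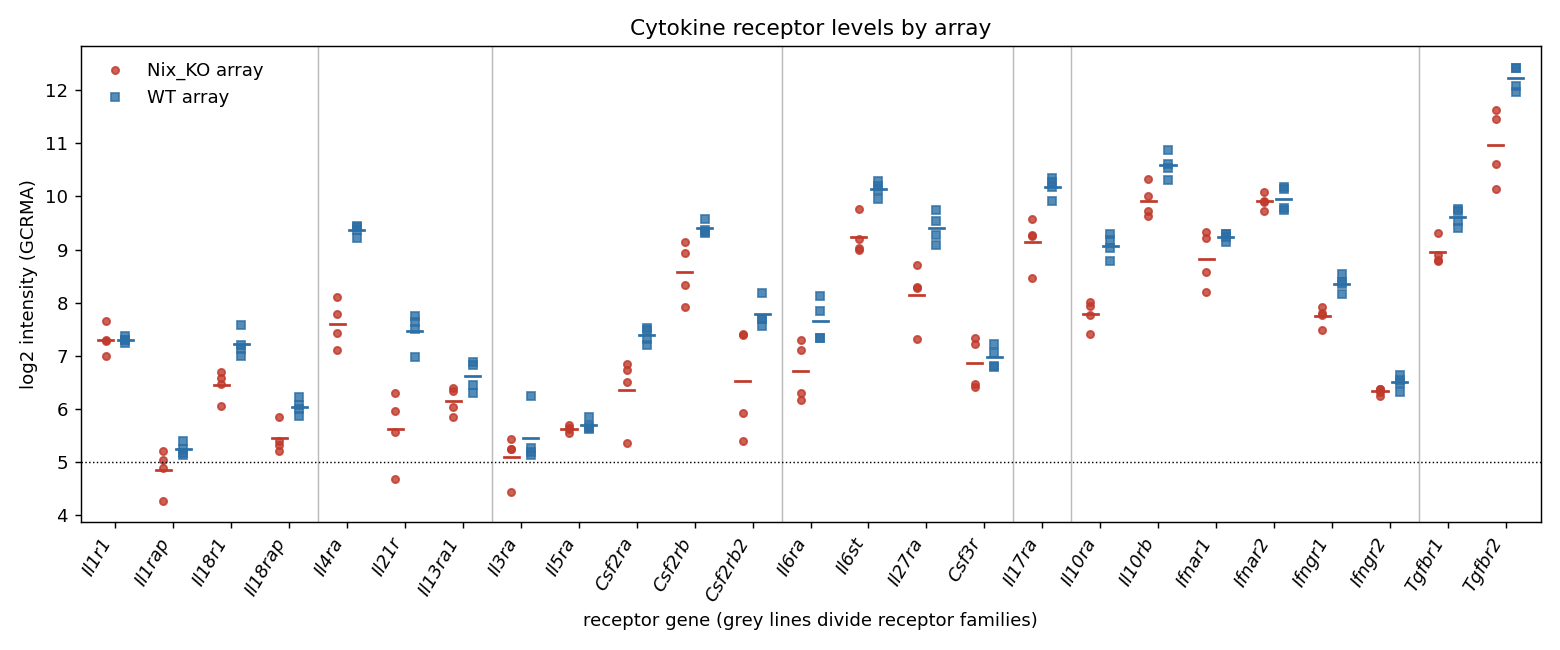
Log2 intensity (y axis) of the 25 receptor genes above background in each of the 4 Nix_KO (circles, left) and 4 WT (squares, right) arrays, with the group means as bars; the dotted line marks log2 5. Il4ra and Il21r show the largest differences between group means, while Il1r1, Il5ra and Csf3r overlap.

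The promoters below are examples from 3 families: Il4ra and Il21r, which lie next to each other on chromosome 7 with no coding gene between them and had the largest mean differences of the 25, Tgfbr2, and Csf2rb2, whose difference did not pass. They were picked after their values were seen. Il10ra and Il27ra, with differences as large as that of Tgfbr2, had no promoter in the RefSeq set used and could not be shown. Each is the 250 bases before the first start site listed for the gene by RefSeq (build GRCm38.p6), written 5′ to 3′ on the strand of the gene. Capitals mark 2 motifs on either strand, AGGAAG, a core bound by ETS factors such as PU.1 (CTTCCT on the other strand), and TTCNNNGAA, the GAS element bound by STAT factors.
Il4ra, chr7:125552021-125552270, plus strand: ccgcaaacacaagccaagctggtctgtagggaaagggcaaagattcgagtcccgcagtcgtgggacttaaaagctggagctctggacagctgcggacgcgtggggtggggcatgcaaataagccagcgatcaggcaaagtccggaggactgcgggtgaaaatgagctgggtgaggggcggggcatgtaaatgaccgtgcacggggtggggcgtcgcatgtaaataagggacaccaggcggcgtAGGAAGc
Il21r, chr7:125603179-125603428, plus strand: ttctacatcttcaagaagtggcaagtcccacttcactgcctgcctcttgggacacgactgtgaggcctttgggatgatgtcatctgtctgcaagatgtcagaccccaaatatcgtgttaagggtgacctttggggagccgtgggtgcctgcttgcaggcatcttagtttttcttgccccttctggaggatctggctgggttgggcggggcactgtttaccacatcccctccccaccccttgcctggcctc
Tgfbr2, chr9:116175364-116175613, minus strand: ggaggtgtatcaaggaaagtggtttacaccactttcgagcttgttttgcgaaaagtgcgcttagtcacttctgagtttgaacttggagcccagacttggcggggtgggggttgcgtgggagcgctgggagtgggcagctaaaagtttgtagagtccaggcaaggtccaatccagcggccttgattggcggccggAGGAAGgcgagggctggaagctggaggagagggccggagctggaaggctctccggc
Csf2rb2, chr15:78305722-78305971, minus strand: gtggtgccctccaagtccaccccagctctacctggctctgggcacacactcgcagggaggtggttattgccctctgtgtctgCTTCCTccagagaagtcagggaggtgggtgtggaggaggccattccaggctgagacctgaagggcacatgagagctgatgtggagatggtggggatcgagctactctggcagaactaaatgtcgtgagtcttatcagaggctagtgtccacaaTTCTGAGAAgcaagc

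The promoters of Il4ra and Tgfbr2 each held 1 ETS core, Csf2rb2 held 1 ETS core and 1 GAS element whose first base lies at -15 from the start site, and Il21r held neither. Of the 33 receptors, 27 had a promoter in the RefSeq table. Csf2rb, Il10ra, Il10rb, Il12rb1, Il17ra and Il27ra had none, and all of these but Il12rb1 were among the receptors called lower. Of those 27, 15 held the ETS core, against 29.2% of 27025 promoters of all genes, 4 held the GAS element, against 7.18%, and 3 held AGATAA, a site of GATA factors, against 10.3%. The 27 include receptors that were dim or not called lower, and of these Il2ra, Csf3r and Ifnar1, among others, held the ETS core. Any link of the motifs to the differences was not tested. The motifs can overlap, as they do at the Ifnar2 promoter. These are matches of letters, counted in the first promoter of each gene; binding was not measured.

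Receptors listed with the common gamma chain family had the lowest family median, -1.76, with 2 of 3 tested genes lower. Il13ra1, counted among the 3, was listed there as the other partner of Il4ra and is not itself a partner of the gamma chain. Il4ra encodes the alpha chain that binds IL-4 and pairs with the common gamma chain or with IL-13 receptor alpha 1. Its log2 intensity was 7.43, 7.10, 7.78 and 8.11 in Nix_KO 2, 3, 6 and 10, against 9.22, 9.37, 9.43 and 9.45 in WT 3, 4, 5 and 6. The highest Nix-null array lay more than 1 log2 unit below the lowest wild-type array. Il4ra fell 3.39-fold (log2 -1.76 ± 0.22 SE, limma adjusted p = 0.00225), and its second probe set fell 2.03-fold (limma adjusted p = 0.0039). Il4ra kept its call whichever array was left out, with differences from -1.93 to -1.59.

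Il21r encodes the private chain for IL-21, a cytokine of helper T cells that drives B cell differentiation. It read 4.67, 5.56, 5.96 and 6.29 in the Nix_KO arrays, in the same order, against 6.97, 7.50, 7.63 and 7.75 in the WT arrays. The groups did not overlap, and 1 Nix-null array, Nix_KO 2, was below log2 5. Il21r fell 3.59-fold (log2 -1.84 ± 0.33 SE, limma adjusted p = 0.00476), also called with each single array left out. Il13ra1, the IL-13 binding partner of the IL-4 receptor, averaged 6.14 ± 0.26 in Nix-null and 6.61 ± 0.28 in wild-type spleens (SD, n = 4 each) on its brightest probe set and did not pass (log2 -0.47 ± 0.19 SE, limma adjusted p = 0.095). Its other probe sets above background differed by 0.07 and 0.12.

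The remaining genes of this family list with a probe set were dim. Il2ra, the inducible alpha chain of the IL-2 receptor, read from 3.16 to 4.21 in Nix-null and from 3.07 to 4.34 in wild-type arrays over 2 probe sets. Il15ra, which presents IL-15 to neighbouring cells, read from 3.44 to 4.76 in Nix-null and from 3.61 to 4.64 in wild-type arrays, and Il9r from 2.44 to 2.66 and from 2.45 to 2.60. No array reached log2 5 for these 3 genes, so no difference could be read from them. Il2rb, the chain shared by IL-2 and IL-15, was named in a separate list of other receptor chains and fell 2.58-fold (log2 -1.37 ± 0.23 SE, limma adjusted p = 0.00379), and Il7r differed by -0.34 (limma adjusted p = 0.473).

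Of the common beta chain family 2 of 5 genes were lower, Csf2ra and the shared chain Csf2rb, with a family median of -0.81. Csf2rb2 and the IL-3 and IL-5 alpha chains did not pass. Csf2ra encodes the GM-CSF binding chain, found on granulocytes, macrophages and dendritic cells. It read 5.35, 6.50, 6.85 and 6.72 in Nix_KO arrays, against 7.31, 7.49, 7.20 and 7.52 in WT arrays. The groups were apart, with Nix_KO 2 lowest by more than 1 log2 unit. Csf2ra fell 2.04-fold (log2 -1.03 ± 0.30 SE, limma adjusted p = 0.0304), a call lost without Nix_KO 3 or any 1 WT array (differences from -1.19 to -0.69), and with no filter (limma adjusted p = 0.065).

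Csf2rb encodes the shared beta chain, and the mouse carries a neighbouring copy, Csf2rb2, whose product serves IL-3 alone. Csf2rb read 8.34, 7.92, 9.14 and 8.94 in Nix_KO arrays, against 9.33, 9.57, 9.36 and 9.32 in WT arrays. It fell 1.76-fold (limma adjusted p = 0.0383), and did not pass without Nix_KO 2, Nix_KO 3 or any 1 WT array, nor with no filter (0.0723). Csf2rb2 read 5.40, 5.92, 7.39 and 7.40 in Nix_KO arrays, against 7.57, 8.19, 7.69 and 7.70 in WT arrays. Nix_KO 2 and 3 were far below the other Nix-null arrays, and with a difference of -1.26 ± 0.44 SE Csf2rb2 did not pass (limma adjusted p = 0.0546). Weighting the arrays moved the difference to -1.13 and brought it under the threshold (limma adjusted p = 0.0324). The difference stayed at -1.26 under 3 other settings, of which 2 passed. These were the stricter filter (limma adjusted p = 0.0427), the mean of a gene's probe sets (0.0348) and no filter (0.116, not passing). For that mean, only the probe set naming Csf2rb2 alone was used, so nothing was averaged. A further probe set, annotated to both genes, stood at -0.71 (limma adjusted p = 0.0677), and because the genes are close copies the signal of one may include the other.

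Il3ra, the IL-3 alpha chain, lay near the background level, from 4.44 to 5.43 in Nix-null and from 5.13 to 6.25 in wild-type arrays, with WT 5 alone above 6. Its difference was -0.37 ± 0.30 SE (limma adjusted p = 0.368). Il5ra, the IL-5 alpha chain of eosinophils and B-1 cells, was the steadiest of the family, with 5.62 ± 0.06 in Nix-null and 5.69 ± 0.11 in wild-type spleens (SD, n = 4 each) and a difference of -0.07 ± 0.13 SE (limma adjusted p = 0.699). Of 10 mast cell, basophil and eosinophil markers, 2 were above background, and 0 of these passed.

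Receptors built on gp130 and related chains were lower, 3 of 4 with a median of -0.92, the exception being the G-CSF receptor. Il6st encodes gp130, the signalling chain for IL-6, IL-11 and LIF. It read 8.99, 9.02, 9.19 and 9.77 in Nix_KO arrays, against 9.96, 10.13, 10.20 and 10.30 in WT arrays. It fell 1.87-fold (log2 -0.90 ± 0.20 SE, limma adjusted p = 0.0091), and the call stood without any single array. Another bright probe set of Il6st, 1437303_at, averaged 9.08 in Nix-null and 9.28 in wild-type spleens, with overlapping groups, and did not pass (log2 -0.20 ± 0.35 SE, limma adjusted p = 0.692), while the third fell 2.12-fold (limma adjusted p = 0.0327). Il6ra, the IL-6 binding chain, read 6.29, 7.29, 6.17 and 7.11 in Nix_KO arrays, against 7.84, 7.34, 8.12 and 7.33 in WT arrays. The groups came close without overlapping, and Il6ra fell 1.92-fold (limma adjusted p = 0.0395). That call did not hold without Nix_KO 2, Nix_KO 6 or any 1 WT array, nor with array weights (log2 -0.53, limma adjusted p = 0.124), quantile normalization (0.063), no filter (0.0806) or centring on the tested probe sets (0.0613).

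Il27ra, the receptor chain that joins gp130 to bind IL-27, read 7.30, 8.29, 8.28 and 8.72 in Nix_KO arrays, against 9.08, 9.54, 9.28 and 9.75 in WT arrays. All Nix-null arrays were below all wild-type arrays, and Il27ra fell 2.40-fold (log2 -1.26 ± 0.29 SE, limma adjusted p = 0.0116) and kept its call without any single array. Csf3r, the G-CSF receptor of neutrophils and their precursors, read 7.23, 6.42, 7.33 and 6.46 in Nix_KO arrays, against 7.05, 7.22, 6.81 and 6.78 in WT arrays. Its groups overlapped fully, with a difference of -0.11 ± 0.24 SE (limma adjusted p = 0.76) that changed sign under other scalings. In the same arrays 13 of 14 neutrophil and myeloid precursor markers were higher, with list means from 9.69 to 10.59 in Nix-null and from 6.97 to 9.36 in wild-type arrays. Il12rb1 and Il12rb2, the IL-12 receptor chains of T and natural killer cells, were not above background: Il12rb1 read from 3.58 to 4.49 in Nix-null and from 4.37 to 5.57 in wild-type arrays, and Il12rb2 from 2.23 to 2.34 and from 2.12 to 2.19.

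Il17ra, the chain shared by receptors of the IL-17 family, was lower on both of its probe sets. The brighter one read 8.47, 9.28, 9.26 and 9.57 in Nix_KO arrays, against 9.92, 10.19, 10.27 and 10.34 in WT arrays. The groups did not overlap, and Il17ra fell 2.05-fold (log2 -1.04 ± 0.23 SE, limma adjusted p = 0.011), called without any single array. The second probe set fell 2.04-fold (limma adjusted p = 0.0322).

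The IL-10 and interferon receptors belong to class II of the superfamily, of which 3 of 6 were lower, with a median of -0.51. Il10ra, the IL-10 binding chain, read 7.41, 7.77, 7.94 and 8.02 in Nix_KO arrays, against 8.78, 9.03, 9.29 and 9.17 in WT arrays. The groups were well apart, and Il10ra fell 2.43-fold (log2 -1.28 ± 0.18 SE, limma adjusted p = 0.00284), called without any single array. Il10rb, the partner chain that IL-10 shares with other cytokines of its family, read 9.63, 9.72, 10.33 and 10.01 in Nix_KO arrays, against 10.54, 10.87, 10.30 and 10.62 in WT arrays. Nix_KO 6 was just above WT 5, and Il10rb fell 1.58-fold (limma adjusted p = 0.0321), and did not pass without Nix_KO 2, Nix_KO 3, WT 3, WT 4 or WT 6.

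Ifngr1, the interferon gamma binding chain, read 7.76, 7.49, 7.81 and 7.92 in Nix_KO arrays, against 8.15, 8.35, 8.54 and 8.40 in WT arrays. It fell 1.53-fold (log2 -0.61 ± 0.15 SE, limma adjusted p = 0.017), a call lost without WT 4 or WT 6. The signalling chain Ifngr2 depended on the probe set. On the brighter one, 1423558_at, it read 6.38, 6.31, 6.25 and 6.37 in Nix_KO arrays, against 6.32, 6.49, 6.63 and 6.55 in WT arrays, and did not pass (limma adjusted p = 0.356), though the mean of both probe sets did (log2 -0.71, 0.00809). On 1423557_at it read 4.77, 4.92, 5.94 and 5.52 in Nix_KO arrays, against 6.42, 6.21, 6.61 and 6.90 in WT arrays, and fell 2.38-fold (limma adjusted p = 0.00931), with 2 of the 4 Nix-null arrays below log2 5. That probe set passed the filter mainly through the wild-type arrays.

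Of the type I interferon receptor, Ifnar1 averaged 8.83 ± 0.54 in Nix-null and 9.24 ± 0.08 in wild-type spleens (SD, n = 4 each) and did not pass (log2 -0.41 ± 0.25 SE, limma adjusted p = 0.228). Its second probe set differed by -0.59 (limma adjusted p = 0.0832). Ifnar2, its high-affinity partner chain, gave different answers by probe set. The brightest, 1440169_x_at, whose suffix marks probes that can match other transcripts, differed by -0.05 (limma adjusted p = 0.833), and 1451462_a_at by -0.11 (0.718), while 1427691_a_at read 7.90, 7.93, 8.47 and 8.13 in Nix_KO arrays, against 8.85, 8.71, 8.96 and 8.74 in WT arrays, and fell 1.63-fold (limma adjusted p = 0.0125). Ifnar2, Il10rb, Ifnar1 and Ifngr2 lie in a row on chromosome 16 with no other coding gene between them, and of their representative probe sets only that of Il10rb passed.

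Calls differed between probe sets for 5 of 10 receptors with more than 1 probe set above background. As these were picked for differing calls in the same arrays, their differences are given with no test. For Ifngr2, 1423558_at minus 1423557_at was 1.08 higher in Nix-null than in wild-type spleens. The difference of the brightest probe set from 1427691_a_at was 0.66 for Ifnar2, and that from 1437303_at was -0.71 for Il6st. For Csf2rb and Il10rb the differences were small, -0.08 and -0.12.

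**Figure D2:**
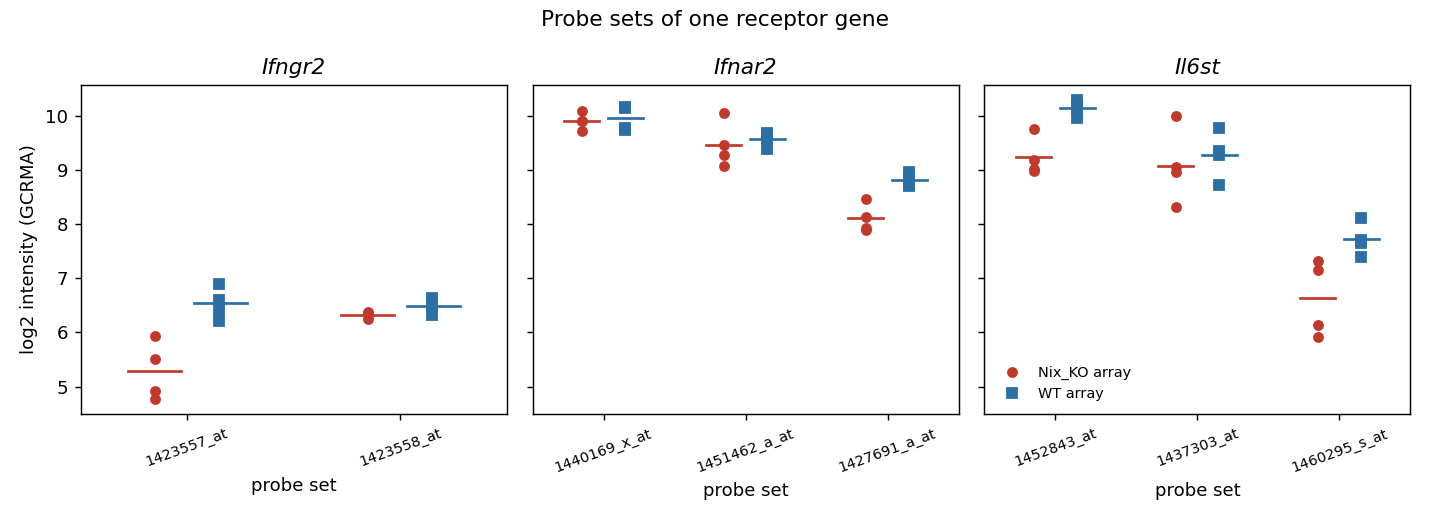
Log2 intensity (y axis) of each probe set above background of Ifngr2, Ifnar2 and Il6st in the 4 Nix_KO (circles, left) and 4 WT (squares, right) arrays, with group means as bars. The groups separate on 1423557_at and overlap on 1423558_at of Ifngr2, and separate on 1 of 3 probe sets of Ifnar2.

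The TGF-beta receptor kinases were both lower, with a median of -0.96. Tgfbr2, the ligand-binding kinase, read 10.14, 10.61, 11.64 and 11.47 in Nix_KO arrays, against 11.96, 12.43, 12.08 and 12.43 in WT arrays. The groups did not overlap, though Nix_KO 2 and 3 lay lower than the other pair, and Tgfbr2 fell 2.40-fold (log2 -1.26 ± 0.32 SE, limma adjusted p = 0.0171). A weaker probe set of Tgfbr2 passed the filter mainly through the wild-type arrays, with 3 of 4 Nix-null arrays below log2 5. It was called lower (limma adjusted p = 0.00879), but passing in this way it adds no separate support. Tgfbr1, the kinase that TGFBR2 activates, read 8.80, 8.79, 8.90 and 9.32 in Nix_KO arrays, against 9.41, 9.72, 9.54 and 9.76 in WT arrays, and fell 1.58-fold (limma adjusted p = 0.0184). Both calls were lost without WT 4 or WT 6.

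The IL-18 receptor chains were lower and the IL-1 receptor chains did not pass, 2 of 4 lower with a median of -0.49. Il18r1, the IL-18 binding chain of T and natural killer cells, read 6.05, 6.47, 6.70 and 6.58 in Nix_KO arrays, against 6.99, 7.58, 7.13 and 7.20 in WT arrays, and fell 1.71-fold (log2 -0.77 ± 0.19 SE, limma adjusted p = 0.016). The call was lost without WT 4 alone (limma adjusted p = 0.0526). Its partner Il18rap read 5.38, 5.21, 5.85 and 5.31 in Nix_KO arrays, against 6.22, 6.06, 6.0 and 5.86 in WT arrays, and fell 1.51-fold (limma adjusted p = 0.0302). With 1 array left out, the Il18rap call was the least stable of the 15, kept in 1 of 8 such fits. It was also lost with quantile normalization (limma adjusted p = 0.062) and with centring on the tested probe sets (0.0707).

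Il1r1, the signalling IL-1 receptor, read 6.99, 7.65, 7.28 and 7.30 in Nix_KO arrays, against 7.25, 7.30, 7.30 and 7.36 in WT arrays. The group means were both 7.30 and the difference had an SE of 0.16 (limma adjusted p = 0.993). Its co-receptor Il1rap was near background, at 4.85 ± 0.41 in Nix-null and 5.24 ± 0.12 in wild-type spleens (SD, n = 4 each), and did not pass (limma adjusted p = 0.178). The decoy receptor Il1r2 read from 4.47 to 4.89 in Nix-null and from 4.26 to 4.69 in wild-type arrays, below log2 5 in all 8.

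**Figure D3:**
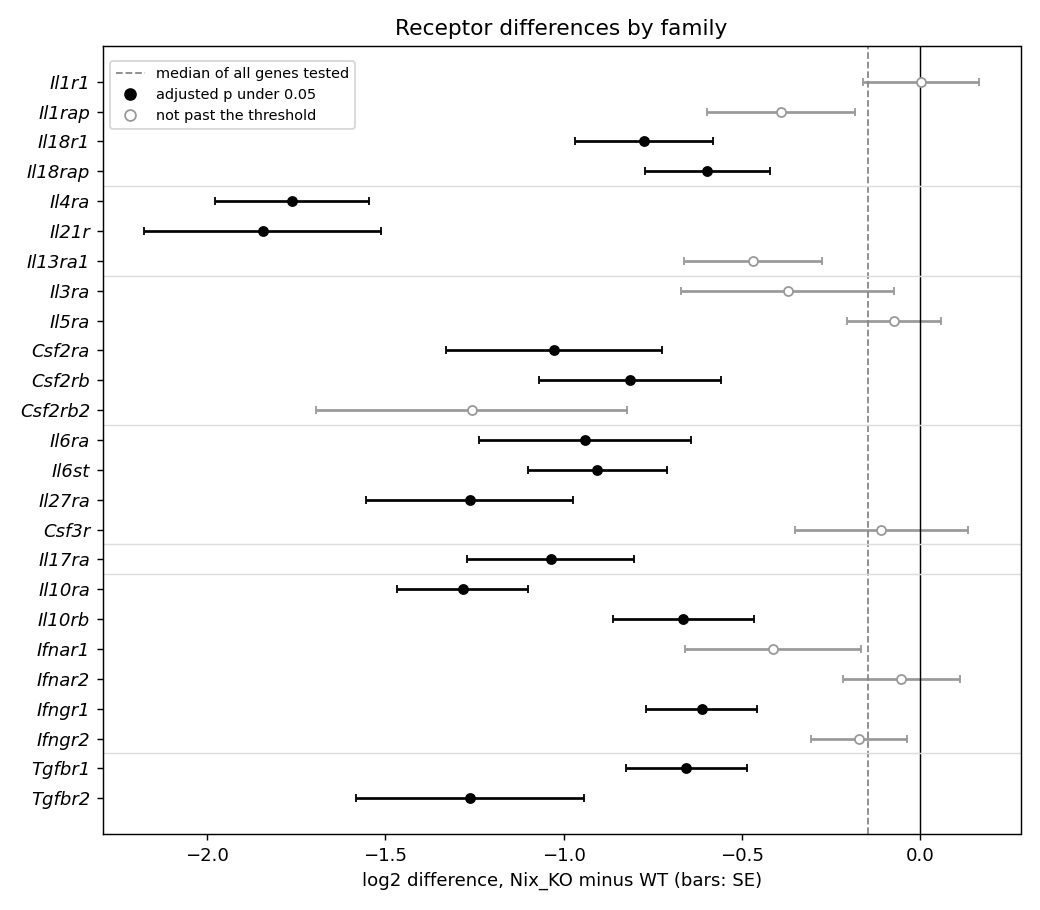
Log2 difference between Nix_KO and WT arrays (x axis, with SE as bars) of the 25 receptor genes, in family order down the page, filled where limma's adjusted p is under 0.05 and open otherwise. The dashed line is the median of all 11027 genes, at -0.15, and 21 of the 25 points lie to its left.

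Chains of one receptor were compared for whether they differed by the same amount. Of 14 pairs listed, 10 had both chains above background, and the log2 difference between chains was compared between genotypes by an exact two-sided permutation test over the arrays. Il4ra was 1.29 lower relative to Il13ra1 in Nix-null spleens, and Il10ra 0.62 lower relative to Il10rb, each with all 4 Nix-null arrays on one side of all 4 wild-type arrays. Il1r1 was 0.39 higher relative to Il1rap, and Ifngr2, on its brighter probe set, 0.44 higher relative to Ifngr1, again with no overlap. On its other probe set, 1423557_at, Ifngr2 differed by -1.25, against -0.61 for Ifngr1, so the direction of that pair rests on the probe set. These 4 pairs reached the smallest possible exact p, 0.0286, which became 0.0714 when adjusted over the 10 pairs, so 0 pairs passed. A few pairs at this smallest p could not pass the adjustment over 10 pairs, whatever the size of their differences. That 0 passed therefore does not show that paired chains changed alike. Tgfbr1 minus Tgfbr2 differed by 0.61 (exact p = 0.143), Csf2rb2 minus Csf2rb by -0.44 (exact p = 0.229) and Il6ra minus Il6st by -0.04 (exact p = 0.971). The value for Il6ra and Il6st rests on the brightest Il6st probe set. On its other probe sets above background Il6st differed by -0.20 and -1.08, against -0.94 for Il6ra.

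**Figure D4:**
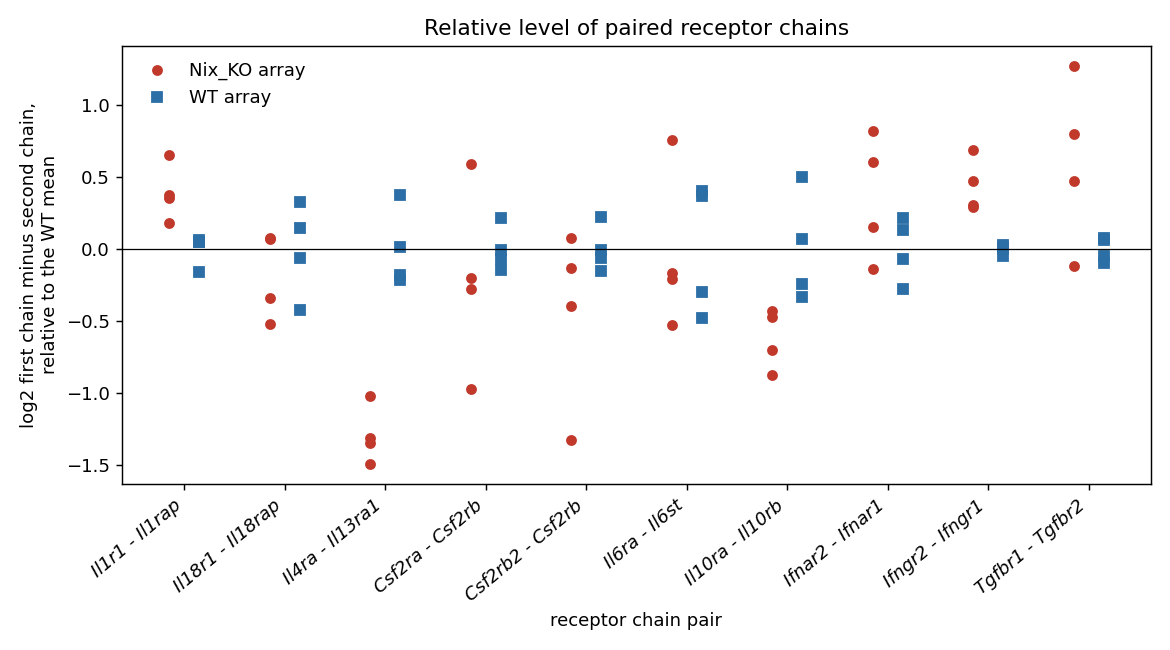
For each of 10 receptor chain pairs, the log2 intensity of the first chain minus the second in each Nix_KO (circles, left) and WT (squares, right) array, set to 0 at the WT mean of the pair. Il4ra minus Il13ra1 shows the widest separation, with all 4 Nix_KO arrays more than 1 log2 unit below the WT mean.

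Genes around the receptors were counted in lists of signalling partners. Of 30 genes of JAK, STAT and SOCS signalling, 14 were lower, 2 were higher and 14 did not pass, with a median difference of -0.58. Stat6, the factor activated by IL-4, fell 2.08-fold, Stat3, activated by IL-6, IL-10 and IL-21, 2.26-fold, the kinase gene Tyk2 1.70-fold, the phosphatase gene Ptpn6 3.04-fold and the adaptor gene Grb2 1.91-fold (limma adjusted p from 0.0041 to 0.00617). Jak3, the kinase that binds the common gamma chain, fell 2.50-fold (limma adjusted p = 0.00978), while Jak1 (log2 -0.35, limma adjusted p = 0.37) and Jak2 (log2 -0.06, 0.824) did not pass. The 2 that were higher were Cish, a STAT5 target and inhibitor of cytokine signalling (1.91-fold, limma adjusted p = 0.016), and Socs4 (1.42-fold, with a limma adjusted p just under the threshold). Jak3, Jak1, Jak2, Cish and Socs4 here, and Il7r and Il1rl2 among the receptor chains, were picked out after their values were seen.

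Of 24 other cytokine and haematopoietic receptor chains above background, 8 were lower, 2 higher and 14 did not pass, with a median of -0.48. Beside Il2rb, Tgfbr3 fell 2.07-fold, Crlf2, a chain of the thymic stromal lymphopoietin receptor, 1.94-fold and Acvr1b, an activin receptor kinase, 2.23-fold (limma adjusted p from 0.00444 to 0.00652). The 2 higher ones were Epor, the erythropoietin receptor (4.17-fold, limma adjusted p = 0.00627), and Il1rl2, the IL-36 receptor (1.37-fold, limma adjusted p = 0.0479). Of 11 TGF-beta signal carriers 8 were lower and 0 higher, with a median of -0.77, among them the SMAD repressor Ski (2.51-fold), Smad3 (1.71-fold), Fkbp1a (2.01-fold), Smad1 (1.91-fold) and Smad4 (1.85-fold), with limma adjusted p from 0.00467 to 0.0207. Of 13 adaptors of IL-1, IL-18 and IL-17 signalling 5 were lower and 1 higher. Their median was -0.14, close to the -0.15 of all genes tested. Irak3, Traf3ip2, Rela and Myd88 fell 2.50-fold, 2.24-fold, 1.68-fold and 1.88-fold. Tab3, a partner of the kinase TAK1, rose 4.24-fold (limma adjusted p from 0.00306 to 0.0084 for all of these).

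Most cytokines themselves were too dim to test. Of 39 ligands and antagonists listed, 14 were above background, and of these 5 were lower, 0 higher and 9 did not pass, with a median of -0.42. Tgfb1 fell 2.81-fold, Ebi3, a subunit of IL-27, 2.15-fold, Csf1, which sustains macrophages, 2.00-fold, Il16 2.41-fold and Il12a 1.62-fold (limma adjusted p from 0.00314 to 0.0161). The background for these lists is the same 21.3% lower and 13.1% higher of all genes tested.

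Markers of several cell types were lower, as the receptors were, while erythroid and neutrophil markers were higher. Of the markers tested, 9 of 9 for B cells, 6 of 10 for T cells, 7 of 8 for natural killer cells, 6 of 8 for dendritic cells and 10 of 12 for stroma and endothelium were lower, and 0 of these were higher. Over all genes tested, 21.3% were lower and 13.1% higher, which is the background for every marker list. The mean log2 intensity of the B cell list ran from 9.86 to 10.69 in Nix-null and from 11.56 to 11.85 in wild-type arrays. For T cells the ranges were 8.51 to 9.52 in Nix-null and 9.39 to 9.95 in wild-type arrays, and for natural killer cells 6.59 to 7.13 and 7.61 to 8.13. Macrophage and monocyte markers were more even, with 1 of 10 lower and list means from 9.63 to 10.25 in Nix-null and from 10.05 to 10.35 in wild-type arrays. Erythroid markers were higher, 9 of 9, from 12.74 to 13.20 in Nix-null and from 9.94 to 11.86 in wild-type arrays. Neutrophil and myeloid precursor markers, given above, were higher for 13 of 14. Megakaryocyte and platelet markers had 2 of 8 lower. Epor, Csf1r and Flt3 stand both in a marker list and among the other receptor chains. Over the 25 receptors the mean log2 intensity stood at 7.44 ± 0.27 in Nix-null and 8.19 ± 0.10 in wild-type spleens (SD, n = 4 each). Among the defining markers, Cd79a of B cells and Cd3e of T cells were present in both groups (means 12.21 and 9.98 in Nix-null, 13.72 and 10.68 in wild-type spleens), and Ncr1 and Klrb1c of natural killer cells were not tested above background. The part of these shifts in the receptor differences was not tested.

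**Figure D5:**
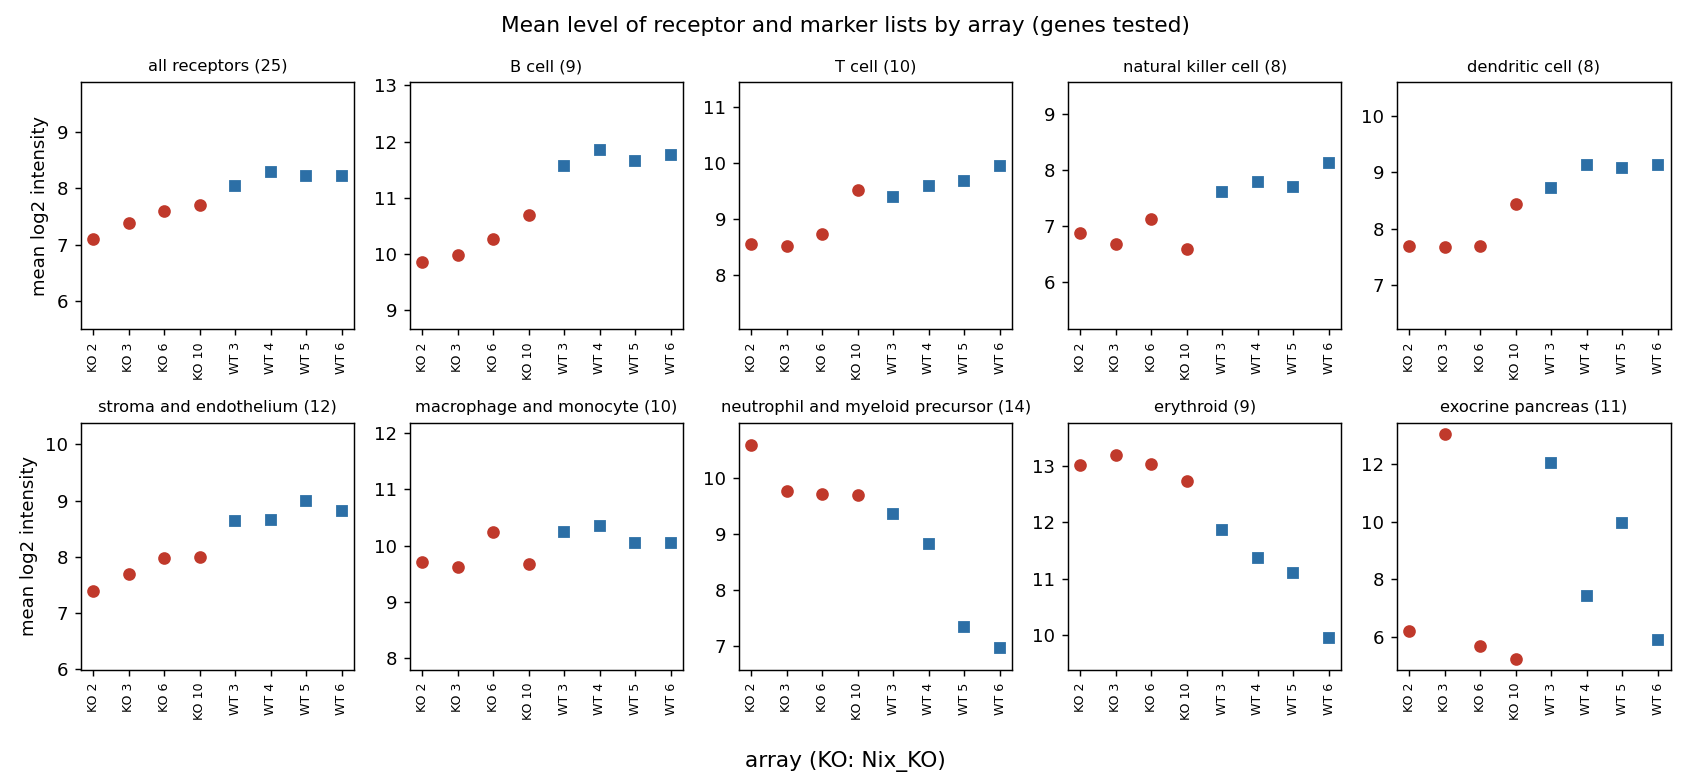
Mean log2 intensity (y axis, its own range in each panel) in each array of the 25 receptors and of 9 marker lists, with the number of genes tested in brackets; circles are the 4 Nix_KO arrays and squares the 4 WT arrays. Receptor and B cell means are lower in every Nix_KO array than in any WT array, erythroid means are higher, and pancreatic means are high in Nix_KO 3, WT 3 and WT 5.

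The spread between animals was wider in the Nix-null group. The SD over 4 arrays was larger in Nix-null than in wild-type spleens for 20 of 25 receptors and for 72.2% of all genes, with a median SD of 0.41 in Nix-null and 0.19 in wild-type spleens over the receptors, and 0.31 and 0.19 over all genes. Csf2rb2 was the most variable receptor, with an SD of 1.03 in Nix-null and 0.27 in wild-type spleens. Nix_KO 10 was the lowest Nix-null array for 0 of the 25 receptors and for 20.2% of all genes. WT 3 was the lowest wild-type array for 17 of 25 and for 35.7% of all genes.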

How the data were processed

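RNA of whole spleens, 1 per array, was hybridised to Affymetrix mouse arrays, 4 Nix-null and 4 wild type. The deposited values are 1 intensity per probe set and array on a linear scale. The submitters' processing notes name GCRMA, with no version, for these deposited intensity values. As background, that method models unspecific binding by probe sequence and normalizes across arrays, which can compress dim values. Array medians ran from 28.8 to 30.6. Precision is limited by the number of arrays.

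Intensities were log2-transformed with no offset. The 64 control probe sets of 45101 were left out. Genes were named from the platform annotation (34945 probe sets with 1 symbol, 932 with several, 9160 with none). Probe sets at log2 5 or more in 4 arrays were fitted with limma 3.58.1 in R 4.3.3 (linear model on genotype, moderated two-sided test), with Benjamini-Hochberg adjustment over all 22347 and a threshold of 0.05. For counts of genes, the brightest probe set (mean of 8 arrays) naming that gene alone stood for it. Chain pairs were compared by exact permutation, and differing probe sets of a gene only described. Promoters came from RefSeq tables. The fit was tested on simulated data.

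The members, lists and tests were chosen with earlier results of these data known. All members with a probe set were to be named, with up to 5 genes of each signalling list, ranked by adjusted p among those that passed. Samples were RNA extracts that were not pooled, and p-values measure the spread between them. Alternatives were other filters, scalings, weights, blocks, gene representations and leaving out arrays. Figures were drawn with matplotlib 3.10.9.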

Additional observations from a re-analysis of the deposited data

Results flagged for a closer look

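Each tested receptor probe set was examined in each group for an array far from the others (gap to the nearest over the range of the group, Dixon's test), in 78 groups of 4 arrays. Chance flags about 1 in 20 such groups, and 2 stood out here. Il3ra read 6.25 in WT 5, where the other wild-type arrays lay between 5.13 and 5.26. The probe set annotated to both Csf2rb and Csf2rb2 read 5.77 in Nix_KO 3, where the other Nix-null arrays lay between 6.84 and 7.0.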

How the results depend on the processing

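The number of lower receptor genes was 15 with all arrays, from 12 to 17 under other filters, scalings, array weights, the mean of a gene's probe sets and the replicate block, and the number of higher ones was 0 under all of these and with any array left out. Leaving out 1 array gave from 6 to 15 lower genes and from 10 to 23 lower probe sets, in place of 21, while the share of all genes lower ran from 11.8% to 22.2%, in place of 21.3%. Over the other settings with all arrays that share ran from 11.04% to 27.4%. Without Nix_KO 3, WT 3 and WT 5, 1 gene and 1 probe set were lower. No chain pair passed under the scalings tried, where a pair alone at the smallest exact p could not pass either. Without those 3 arrays no pair could pass, as too few arrays remained. The median receptor difference was -0.90 with the stricter filter at log2 7, which tested 17 receptors, in place of -0.66; leaving out 1 array gave from -0.78 to -0.60. With each array centred on the median of the tested probe sets, chosen after seeing the data, the median of all genes was -0.02 in place of -0.15, 13 receptors were lower and their median was -0.54. Signs turned only for differences near 0 that did not pass: Il1r1 (-3.63e-05 with arrays centred on their median, -0.14 without the 3 arrays, from -0.11 to 0.11 with 1 array left out), Csf3r (0.0079 with quantile normalization, 0.0029 without the 3 arrays, 0.015 with centring on tested probe sets, from -0.26 to 0.0391 with 1 array left out), Ifnar2 (0.071 with that centring, from -0.13 to 0.0191 with 1 array left out), Il5ra (0.049 with that centring) and Il6ra minus Il6st (0.070 with quantile normalization, 0.088 without the 3 arrays); the cause was not tested.

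The titles give the numbers 3 and 6 in both genotypes. Deviations from the group means correlated at 0.25 for the number 3 and 0.15 for the number 6, but with 2 shared numbers nothing shows that they pair animals. Nix_KO 3 and WT 3 also shared a high pancreatic signal, whose part in their correlation was not tested. With the number as a replicate block 16 receptor genes were lower, 0 were higher and their median was -0.66. Csf2rb2 then passed (limma adjusted p = 0.0492).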
